A study of Mus musculus with 6 samples.

Results

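Abra and Ankrd2 are genes best known from skeletal and heart muscle, where both respond to mechanical load and stress. They were picked by name out of the 3201 genes of a table of mouse liver RNA-seq values, because their values differed widely between the livers compared here, so 2 of 3201 genes are described. After hepatic ischemia and reperfusion, Abra averaged 3.77 TPM (a read count scaled by gene length and library) in livers of Fgf18 f/f mice and 0.0554 TPM in livers of Fgf18△HSC mice, and Ankrd2 averaged 7.90 and 0.284 TPM (n = 3 livers each). This difference led to the choice of the genes and is given as a description, without a test.

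Abra (also called STARS) encodes an actin-binding protein. It favours the assembly of actin filaments, which lets the co-activator MRTF enter the nucleus and switch on target genes of serum response factor (SRF). Ankrd2 (also called Arpp) encodes a muscle ankyrin repeat protein that sits at the sarcomere and can move to the nucleus. It is induced in muscle by stretch, as is its relative Ankrd1 (also called CARP), a gene that is also a target of the YAP and TEAD factors. A healthy liver holds no striated muscle, and its contractile cells are the hepatic stellate cells (HSCs), which store vitamin A along the sinusoids, and the smooth muscle cells of vessels.

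Whole livers came from male mice on a C57BL/6 background, killed after 1 h of partial warm ischemia and 6 h of reperfusion. There were 3 Fgf18 f/f mice (here the controls), which carry the floxed gene without Cre, and 3 Fgf18△HSC mice (here the knockouts), in which Cre driven by the GFAP promoter removes Fgf18 in HSCs. All 6 livers went through ischemia and reperfusion (I/R), and livers without I/R were not analysed here. GFAP-Cre marks a promoter and not a sorted cell, and each value comes from all cells of a liver, so fewer cells of a type and less RNA per cell cannot be told apart. For the control livers the submitters wrote the treatment where a genotype belongs, and the genotype was taken from the study's text. Fgf18 has no value here, so no check of the labels against the deleted gene was made, and the age of the mice is not given in the sources used here. The labels number the livers 1 to 3 in each group and do not say whether mice shared a litter or a day, so p-values measure the spread between these livers.

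The values were taken as TPM, that is, read counts per gene length scaled to one total per liver. The table had already been reduced to genes that differed between these same livers, so counts taken from it do not describe the genes left out. The limma p-values below were computed on genes selected in this way. They rank the listed genes and give no separate evidence that a gene differs. A value multiplied by exon length came in whole steps for 92.2 to 92.6% of the values below 5000 reads, which gave back the reads on most genes. The 2943 listed genes with recovered reads held 2946808 to 4529360 reads in the control livers and 1475817 to 1958440 in the knockout livers. All 3201 listed genes held 7.14 to 7.93% of all TPM in the control livers and 3.89 to 3.99% in the knockout livers. A single read counted for 0.0374 to 0.0655 TPM at a length of 1 kb.

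In mouse genome GRCm38, Abra (ENSMUSG00000042895) lies on the minus strand at chr15:41864076-41869720, with 2 exons that join to 2979 bases. The reads recovered for Abra were whole in 6 of 6 livers with a length of 1762 bases and in 1 of 6 with 2979. The shorter length is that of the exons inside the RefSeq extent of the gene, 41865293 to 41869720, so the last 1217 bases of the longer transcript did not enter the values. Ankrd2 (ENSMUSG00000025172) lies on the plus strand at chr19:42036000-42045110, with 9 exons that join to 1138 bases. Its reads were whole in 6 of 6 livers with the 1100 bases of the shorter of its 2 GENCODE transcripts. No annotated gene overlaps either one.

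**Figure D1:**
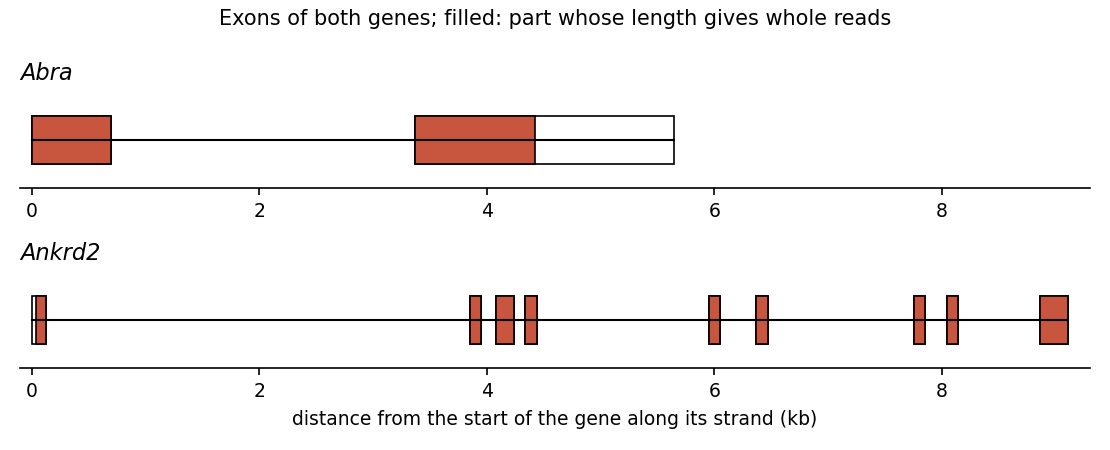
Exon maps of Abra and Ankrd2 drawn to scale, with distance in kb from the start of the gene along its own strand. Boxes are exons, and the filled part is the length that gave whole reads: 1762 bases in Abra and 1100 bases in Ankrd2.

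The sequence before the start of Ankrd2 is shown because its relative Ankrd1 differed the other way between the same livers. It covers the 250 bases before the transcript start at 42036027 that the RefSeq promoter table uses, chr19:42035777-42036026 of GRCm38.p6 on the plus strand, and is credited to RefSeq. The RefSeq extent of the gene begins further upstream, at 42035917, so the end of the window lies inside it. The last 27 bases are also the first exon bases of a longer Ankrd2 transcript in GENCODE. Capitals mark the E-boxes (CANNTG), the GC boxes (GGGCGG) and the TATA box (TATAAA).
Ankrd2 promoter: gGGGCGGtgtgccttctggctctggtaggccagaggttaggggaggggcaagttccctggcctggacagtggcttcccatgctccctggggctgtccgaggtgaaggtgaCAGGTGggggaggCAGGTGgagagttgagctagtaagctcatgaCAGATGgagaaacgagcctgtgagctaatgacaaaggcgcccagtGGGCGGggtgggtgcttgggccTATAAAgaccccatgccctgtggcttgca
The window held 3 E-boxes, 2 GC boxes and 1 TATA box, which ends 23 bases before that transcript start. E-boxes, the letters read by MyoD and other basic helix-loop-helix factors, were present in 66.2% of the 32851 windows of the same length, GC boxes in 32.7% and TATA boxes in 12.4%, counting both strands. The Ankrd1 window held 1 E-box and no GC box or TATA box. The letters GGAATG, read by TEAD factors, occurred 0 times before Ankrd2 and 2 times before Ankrd1, and in 12.6% of all windows. The CArG box read by SRF and the MEF2 motif, both looked for by name, occurred 0 times before either gene, against 1.47% and 2.92% of all windows. The core of the antioxidant response element (TGACNNNGC) occurred 0 times before Ankrd2 and 1 time before Ankrd1 (10.2% of all windows), and the AP-1 motif (TGANTCA) before neither (6.75%). The clock factor motif (CACGTG), a special case of the E-box, was also before neither (6.02%). These matches describe letters in a window and were not tied to the values below.

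A stretch that members of a gene family share can draw reads from one to the other. Ankrd2 shared no stretch of 16 bases with Ankrd1. Its longest stretch in common with another gene was 26 bases, found in Ankrd23, the third member of its family, and in Gm42417, from base 407 of that transcript.
Ankrd2 and Ankrd23: attgacaagtacctggcggacggagg
The counted part of Abra shared at most 19 bases with any other gene. The uncounted end of its transcript shared up to 73 bases with other genes, and 246 genes shared at least 40 bases of it.

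Abra had reads in every control liver and almost none in knockout livers. The 3 control livers had 3.12, 3.24 and 4.95 TPM, on 147, 127 and 157 reads. The 3 knockout livers had 0.0547, 0.111 and 0 TPM, on 2, 3 and 0 reads. The groups did not overlap, and the lowest control liver stood 28 times above the highest knockout liver. The means were 3.77 ± 1.02 TPM and 0.0554 ± 0.0557 TPM (SD, n = 3 livers each). Summed over livers and corrected for depth, 431 reads against 5 gave a ratio of 71.7, with an exact 95% interval of 30.5 to 222 that covers counting error only. The liver with 0 reads allows up to 0.106 TPM by the same kind of interval. On the log2(TPM + 0.1) scale, where low values lose part of their change, the difference was -4.67, the second lowest of the 3201 genes. With so few reads in knockout livers this value and its rank depend on the pseudocount. The difference was -2.16 with 1 TPM added (47th lowest) and -6.43 with 0.01 TPM added (2nd lowest).

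Ankrd2 was also lower in knockout livers, and a low level remained in each of them. The 3 control livers had 8.96, 9.02 and 5.70 TPM, on 264, 221 and 113 reads. The 3 knockout livers had 0.351, 0.179 and 0.322 TPM, on 8, 3 and 7 reads. The groups did not overlap, with a gap of 16.3 times between the lowest control liver and the highest knockout liver. The means were 7.90 ± 1.90 TPM and 0.284 ± 0.0921 TPM (SD, n = 3 livers each). The depth-corrected ratio of 598 reads to 18 was 27.6, with an exact 95% interval of 17.3 to 47.0 for counting error. The difference on the log2(TPM + 0.1) scale was -4.38, the third lowest of the table. Its rank was 11th lowest with 1 TPM added and 10th lowest with 0.01 TPM added.

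**Figure D2:**
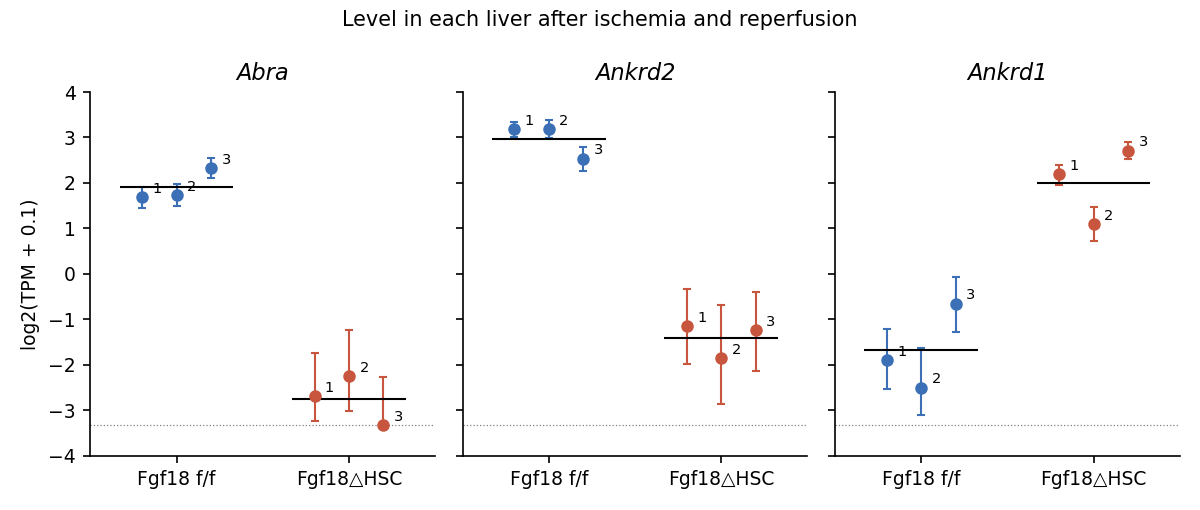
Level of Abra, Ankrd2 and Ankrd1 in each of the 6 livers, as log2(TPM + 0.1). Points are livers 1 to 3 of each group, bars are exact 95% Poisson intervals for counting error, black lines are group means and the dotted line is 0 TPM. Abra and Ankrd2 are high in the control livers and Ankrd1 in the knockout livers.

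Both genes were among those called lower in knockout livers, which made up 961 of the 3201 genes or 30.0% (limma over all listed genes, with an adjusted p below 0.05 after Benjamini-Hochberg correction and a log2 fold change beyond 1 in size). Every knockout liver was under every control liver in 1097 genes (34.3%), Abra and Ankrd2 included. Nothing is read from these counts, since the genes were chosen by this difference. Differences below -4 occurred in 6 genes, while the median of the table was 0.88 and 1333 genes (41.6%) were called higher. When the livers were rescaled by their median ratios over the listed genes, 1115 genes were called lower and 281 higher.

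Among the listed genes, both went from the upper part of the range to its lower end. In the control livers Abra stood at or above 74.4, 74.4 and 78.5% of the listed genes by TPM, and in the knockout livers at or above 5.9, 12.7 and 0.4%. Ankrd2 stood at or above 83.1, 83.1 and 79.9% in the control livers and 30.9, 20.0 and 27.2% in the knockout livers. Of the pair, Ankrd2 kept the higher place in every liver.

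**Figure D3:**
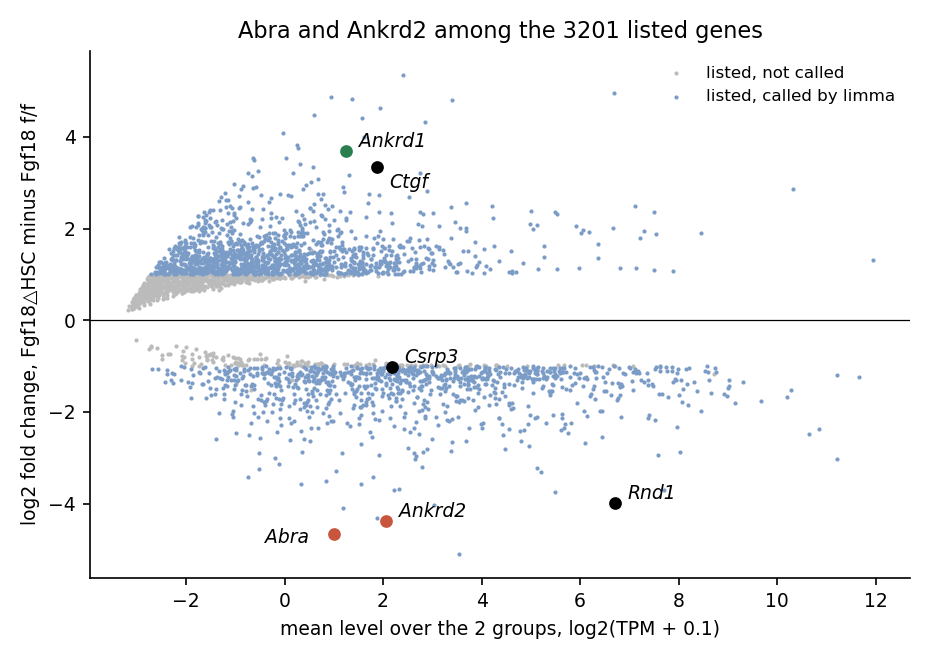
Log2 fold change (Fgf18△HSC minus Fgf18 f/f, that is, knockout minus control) against mean level for the 3201 listed genes, both on the log2(TPM + 0.1) scale. Small points are genes, blue where called by limma. Abra and Ankrd2 sit near the bottom at -4.67 and -4.38 and Ankrd1 near the top at 3.68.

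Within the control group the order of the livers differed between the genes. Control liver 3 had the highest Abra level and the lowest Ankrd2 level of its group. The ratio of Ankrd2 to Abra in TPM was 2.88 and 2.79 in control livers 1 and 2 and 1.15 in liver 3. Compared with the mean of the other two, liver 3 held 1.56 times as much Abra and 0.634 times as much Ankrd2. Over the 1119 listed genes with at least 50 reads in each control liver this ratio had a median of 0.973 and quartiles of 0.864 and 1.13. Abra stood above 96.9% of these genes and Ankrd2 above 2.0%. This is 1 mouse, and the difference was not tested. In knockout livers 1 and 2 the ratio of Ankrd2 to Abra was 6.41 and 1.6 on 2 and 3 Abra reads, too few to set an order.

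The other muscle ankyrin repeat gene in the table went the opposite way. Ankrd1 had 0.169, 0.0763 and 0.535 TPM in the control livers, on 8, 3 and 17 reads. It had 4.45, 2.04 and 6.44 TPM in the knockout livers, on 163, 55 and 225 reads. The groups did not overlap, and 62.0% of the listed genes had every knockout liver above every control liver. Ankrd1 rose by 3.68 on the log2(TPM + 0.1) scale (standard error 0.53, limma adjusted p = 0.000395), the 14th largest rise in the table, and by 2.9 with the livers rescaled. Its depth-corrected read ratio was 19.0, with an exact 95% interval of 13.0 to 28.9. The length that gave whole reads for Ankrd1 was 1765 bases, which is that of none of its GENCODE transcripts. The ratio of Ankrd2 to Ankrd1 in TPM was 53, 118 and 10.7 in the control livers and 0.0788, 0.0875 and 0.0499 in the knockout livers. So the more abundant of the relatives was Ankrd2 in each control liver and Ankrd1 in each knockout liver. Ankrd23 was not among the listed genes.

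The table listed 9 genes with an Ankrd symbol, a group looked at after their values were seen. Of these 8 had higher values in knockout livers, beside 2083 of the 3201 listed genes, and Ankrd2 was the one lower gene. Called higher were 4 (Ankrd1, Ankrd37, Ankrd49 and Ankrd50). The share called higher was 41.6% over all listed genes, and with the livers rescaled 1 of the 9 was called higher (Ankrd1) and 1 lower (Ankrd2). The largest fold change after Ankrd1 was 1.37, for Ankrd37, a target of hypoxia signaling. Ankyrin repeats are a common protein fold, and most genes so named share no role with Ankrd2.

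Of 32 components of the actin and MRTF pathway 4 were in the table, Abra included. Rnd1 and Rnd3, small GTPases that loosen the actin cytoskeleton, were lower in knockout livers together with Abra. Rnd1 had 204, 213 and 178 TPM in the control livers and 14.5, 10.5 and 12.4 TPM in the knockout livers. Rnd1 fell by 3.99 (standard error 0.14, limma adjusted p = 4.73e-06). Rnd3 had 40.8, 37.0 and 38.5 TPM against 19.4, 12.3 and 17.9 TPM, and fell by 1.25 (limma adjusted p = 0.000322). Myocd, a muscle co-activator of SRF, had 1 read per control liver and 4, 7 and 14 in the knockout livers and was not called. The remaining genes, Srf and Mrtfa among them, were not listed. Without Abra, 2 of the listed genes were called lower and 0 higher, beside 30.0% and 41.6% of all listed genes. These are too few genes to describe the pathway.

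Most listed genes known as SRF and MRTF targets were higher in knockout livers, unlike Abra. Of 35 such genes 11 were listed, 10 called higher in knockout livers and 1 lower, beside 41.6% and 30.0% of all listed genes. Their median log2 fold change was 1.53 beside 0.88 for the table. With the livers rescaled 2 were called higher and 1 lower. In both fits 10 values were above 0, beside 2083 of the 3201 listed genes before rescaling. Ankrd1 and Ctgf (the matricellular gene Ccn2) were the largest rises. Ctgf had 0.379, 0.612 and 0.737 TPM in the control livers and 6.71, 6.06 and 6.94 TPM in the knockout livers, a rise of 3.34 (limma adjusted p = 1.76e-05). Ctgf stood higher in every knockout liver than in any control liver, as did 62.0% of all listed genes. Abra was among the 34.3% with the reverse. Other called targets were the actin cross-linker Flna (1.54), smooth muscle actin Acta2 (1.92) and Tagln (1.26), none of them called with the livers rescaled, when Ankrd1 and Ctgf were the called rises. The 1 lower gene was the AP-1 subunit Fosb, with 12.6, 10.7 and 6.05 TPM against 1.68, 0.797 and 1.51 TPM, and fell by 2.78 (limma adjusted p = 0.000161). Fosb shared with Ankrd2 its lowest Fgf18 f/f value in liver 3.

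Of 22 YAP and TEAD targets 10 were listed, 5 called higher and 2 lower, with a median log2 fold change of 1.0. These counts and this median are close to those of the whole table (41.6% higher, 30.0% lower, median 0.88), and with the livers rescaled 2 were called higher and 2 lower. Ankrd1 and Ctgf belong to this group too, so it is not independent of the one above. The 2 lower genes were the stress-induced growth arrest genes Gadd45a, which fell by 2.24 (limma adjusted p = 1.96e-05), and Gadd45b, which fell by 1.29.

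Among 32 stress adaptors and chaperones known from muscle, 8 were listed. Of these 6 were called higher and 1 lower, beside 41.6% and 30.0% of the table, with a median log2 fold change of 1.12 beside 0.88; 1 was called higher and 1 lower with the livers rescaled. The small heat shock proteins Cryab (1.72), Hspb7 (1.63) and Hspb1 (1.15) and the filamin Flnc (1.17) rose, Flnc and Hspb7 on at most 17 and 3 reads per control liver. The gene that fell with Abra and Ankrd2 was Csrp3, the muscle LIM protein, a partner of actin and of the sarcomere. Csrp3 had 5.27, 5.28 and 7.44 TPM in the control livers and 2.49, 3.58 and 2.59 TPM in the knockout livers, and fell by 1.03 (standard error 0.20, limma adjusted p = 0.00159). Like Abra it was highest in control liver 3. Its call was lost with a pseudocount of 1 TPM and without control liver 3, knockout liver 1 or knockout liver 3.

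**Figure D4:**
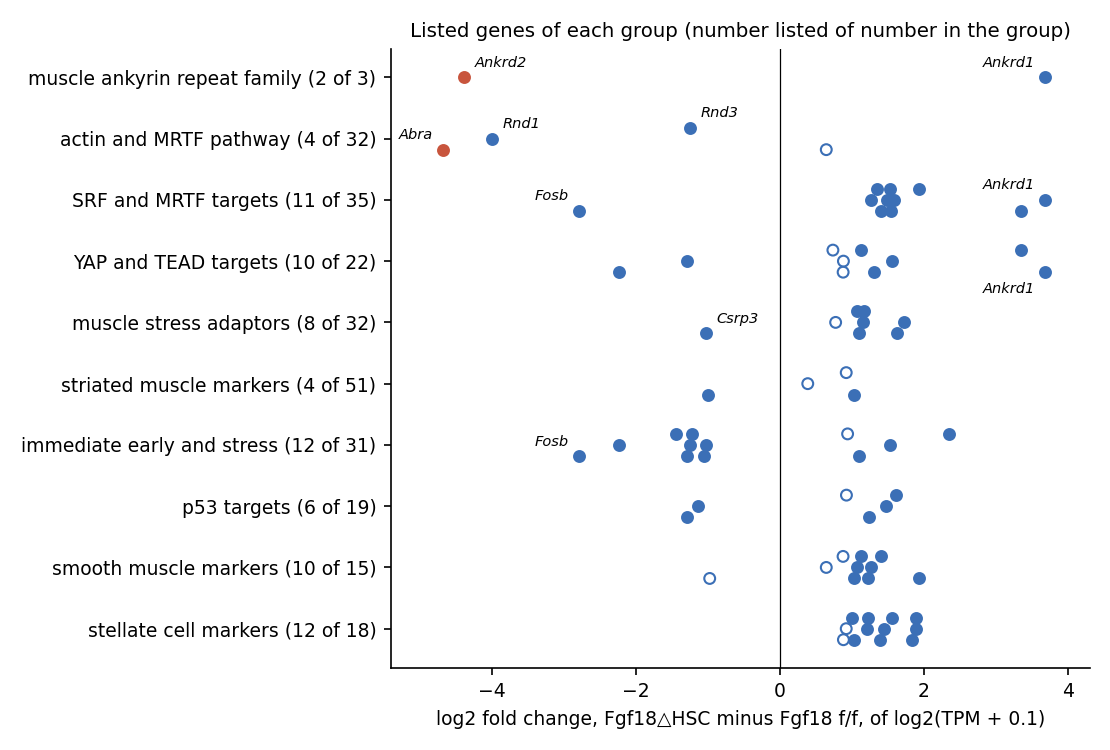
Log2 fold change (Fgf18△HSC minus Fgf18 f/f, that is, knockout minus control) of each listed gene of 10 gene groups, with the number listed of the number in the group. Filled points were called by limma and open points were not, and Abra and Ankrd2 are red. Abra, Rnd1 and Rnd3 lie left of 0 while 10 of 11 SRF and MRTF targets lie right of it, beside 2083 of the 3201 listed genes.

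Few markers of striated muscle were in the table, and their summed level overlapped between the groups. Of 51 defining markers 4 were listed, the myosin Myh3, the calcium channel Ryr2, the intermediate filament gene Des and the glycogen phosphorylase Pygm. Des was called higher (1.03) and Pygm lower (-1.0), and each lost its call when some single livers were left out. The summed level of the 4 markers was 1.05 to 1.33 TPM in the control livers and 1.12 to 1.36 TPM in the knockout livers. Pygm made up most of the sum in the control livers, with 0.917, 1.09 and 0.759 TPM. Abra and Ankrd2 alone summed to more than the 4 markers in each control liver, but the unlisted markers have no value here. The sum therefore does not measure striated muscle RNA in these livers. The sarcomere genes Ttn, Acta1, Ckm and Tnnt3 were not listed. Of 15 muscle transcription regulators Six4 alone was listed, on 2 to 27 reads per liver, and it was not called.

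Markers of other liver cells have a value here only where they differed between these livers, so a difference in the listed ones was fixed in advance. The sums below cover listed markers only and do not measure the amount of a cell type. Their part in the values of Abra and Ankrd2 was not tested. Of 18 HSC markers 12 were listed, 10 were called higher in knockout livers and 0 lower (41.6% and 30.0% of all listed genes), and their summed level was 8.51 to 11 TPM against 24.1 to 32.7 TPM. All 12 had values above 0 on the fold change scale, beside 2083 of the 3201 listed genes. All 12 also stayed above 0 with the livers rescaled, when 1 was called, but the share of all genes above 0 was not counted there. The platelet-derived growth factor receptor Pdgfrb (1.89), the Wnt potentiator Rspo3 (1.88) and the transcription factor Hand2 (1.84) led them. Of 15 smooth muscle and myofibroblast markers 10 were listed, 7 called higher and 0 lower, beside the same table shares. With the livers rescaled 0 were called higher and 1 lower. Their summed level was 13.5 to 15.1 TPM against 18.8 to 26.1 TPM. Acta2, Myl9 and Tagln were also counted among the SRF and MRTF targets, and Des among the HSC and striated muscle markers. Of 17 hepatocyte markers 3 were listed (Cyp2e1, Pck1 and Tdo2) and all 3 were called lower, Tdo2 not without control liver 3 or knockout liver 3, with a summed level of 2320 to 2740 TPM against 746 to 1020 TPM. Cyp2e1, a drug-metabolizing enzyme of hepatocytes around the central vein, fell by 1.67 (limma adjusted p = 6.60e-05), and Pck1, the rate-limiting enzyme of gluconeogenesis, fell by 1.64.

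Of 31 immediate early and acute stress genes 12 were listed, 8 called lower and 3 higher, beside 30.0% and 41.6% of the table. Their median log2 fold change was -1.13, and with the livers rescaled 8 were called lower and 1 higher. Fosb and Egr2 were already counted among the SRF and MRTF targets, and Gadd45a and Gadd45b among the YAP and TEAD targets. These groups are therefore not independent. Myc fell by 1.25 and Gadd45g by 1.44, while the AP-1 subunits Fosl1 (2.34) and Jun (1.10) rose. Of 19 p53 targets 6 were listed, with 3 called higher (Bbc3, 1.61; Phlda3, 1.47; Sesn2, 1.23) and 2 lower (the death receptor gene Fas, -1.29; Trp53inp1, -1.13), and 0 and 2 with the livers rescaled. The p53 counts are close to the table shares.

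The genes whose pattern over the 6 livers was most like that of each gene were found by the root mean square distance between centred log2(TPM + 0.1) profiles, over the 1667 genes whose mean reached 1 TPM in one group or both. This is a description of profiles over 6 livers, and depth and group are shared by all of them. Nearest to Ankrd2 were Rnd1 (0.262), Gm45221 (0.351), Acot3 (0.466), Gm32468 (0.478) and Ngp (0.481). Nearest to Abra were Mir6386 (0.591), Rnd1 (0.592), Ngp (0.664), Ankrd2 (0.668) and Il10 (0.676). Ankrd2 was thus the fourth nearest to Abra, Abra the ninth nearest to Ankrd2, and Rnd1 and Ngp were near both. Abra and Ankrd2 were both chosen for a large drop between the groups, and both reached 1 TPM through the control livers only. Their nearness to each other follows from that choice and is not evidence of a link. Acot3 encodes a peroxisomal acyl-CoA thioesterase, Ngp a granule protein of neutrophils and Il10 an anti-inflammatory cytokine. Ngp had 10.4, 8.48 and 8.59 TPM against 0.947, 0.536 and 0.455 TPM, and Il10 had 17.1, 16.7 and 12 TPM against 0.442, 1.30 and 0.965 TPM. Both cytokine and granule gene were far lower in all knockout livers, which follows from choosing them by a profile like that of the pair. Mir6386 lies inside Plscr1 on the other strand, Gm45221 inside Picalm on the same strand, and Acot3 overlaps other genes, so reads at these places may belong to another gene.

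Of the listed genes nearest to Ankrd2 and Abra on their chromosomes, Hoga1 and Dpys were called lower and Tnfrsf11b higher. Over all listed genes 30.0% were called lower and 41.6% higher. Those nearest to Abra lie 2006.6 kb or more away. Hoga1, a mitochondrial enzyme of hydroxyproline breakdown, starts 0.5 kb beyond the end of Ankrd2 on the same strand, and overlaps another gene of that strand. Hoga1 had 69.1, 62.5 and 60.9 TPM in the control livers and 25.5, 32.6 and 24.8 TPM in the knockout livers, and fell by 1.22 (limma adjusted p = 0.000104). Its level in TPM was above that of Ankrd2 in every liver, and its log2 difference was nearer to 0. On the other side Rrp12, a ribosome assembly factor at 139.8 kb, was not called (-0.97), but was called lower with the livers rescaled (-1.99), without control liver 3 (-1.13) and without knockout liver 3 (-1.04). The listed genes nearest to Abra were Dpys at 2006.6 kb, which fell by 1.28, and Tnfrsf11b at 12380.9 kb, which rose by 1.37 and was not called with the livers rescaled. Ubtd1, 1.4 kb before Ankrd2, and Oxr1, 3.0 kb from Abra, were not listed.

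Leaving out any one liver kept both genes far below 0. The log2 difference of Abra ranged from -4.93 to -4.39 and that of Ankrd2 from -4.60 to -4.17. In these fits Abra was the larger difference in most cases, but the order of the pair turned without control liver 3 (Abra -4.46, Ankrd2 -4.60) and without knockout liver 3 (Abra -4.39, Ankrd2 -4.47), and with a pseudocount of 1 TPM.

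**Figure D5:**
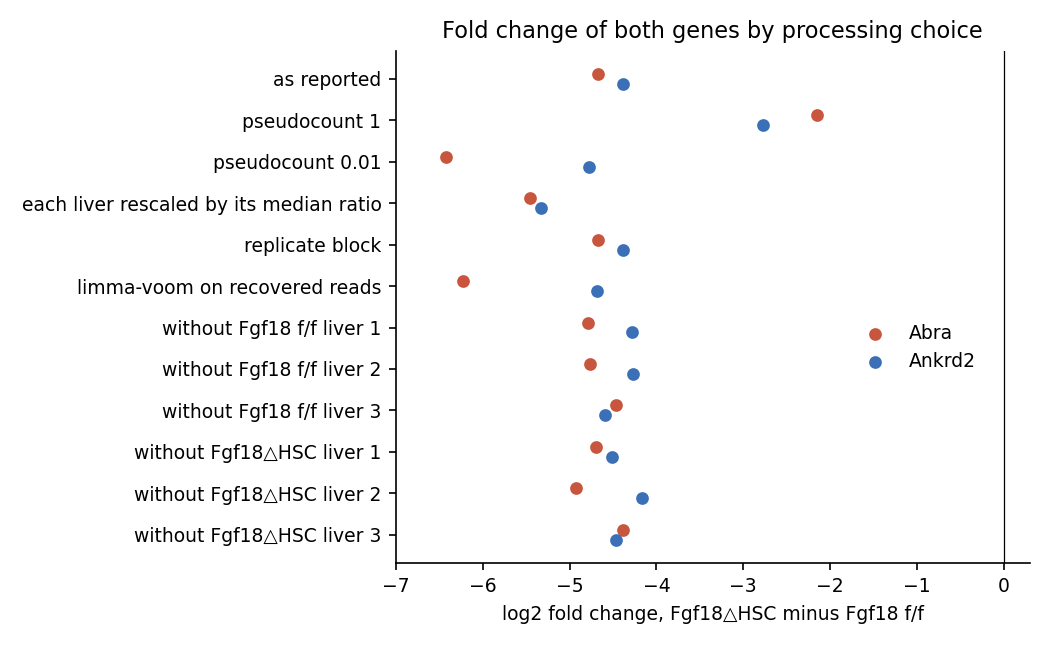
Log2 fold change (Fgf18△HSC minus Fgf18 f/f, that is, knockout minus control) of Abra and Ankrd2 under each processing choice and with each liver left out, as points with no error bars. Values run from -6.43 to -2.16 for Abra and from -5.33 to -2.77 for Ankrd2, all below 0.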

How the data were processed

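Livers were grouped by their titles. Per the labels and the methods, RNA was isolated with TRIzol, stranded mRNA libraries were made, and reads were trimmed with cutadapt 2.5, aligned to GRCm38 (mm10) with HISAT2 2.1.0 and counted per gene with featureCounts 1.6.3; the authors compared groups with DESeq2. Whether strand was used in counting is not given in the sources used here. The authors deposited TPM values per gene and liver (unit inferred, not stated), restricted to differing genes, with the log2 fold changes and p-values of their own comparison, which were not used. Reads were recovered from TPM and GENCODE M21 exon length, and for Abra, Ankrd2 and Ankrd1 from the lengths given above. This gave 2943 genes with whole reads in all livers (within 0.02 reads), where values of 5000 reads or more were not checked. Of these genes 184 had under 10 reads in every liver.

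The values log2(TPM + 0.1) were fitted with limma 3.58.1 (lmFit, eBayes with a mean-variance trend) in R 4.3.3 over all 3201 genes, with no covariate. The fit was tested on simulated data. Other values were computed in Python 3.11.15 with scipy 1.17.1. Alternatives were pseudocounts of 1 and 0.01, rescaling by median ratio, a replicate block, a mean of at least 1 TPM, no trend, limma-voom on recovered reads and each liver left out. Abra and Ankrd2 and all gene lists were chosen with earlier results of these data known. Genes named were the family of Ankrd2, the 3 largest called changes of each list, the 5 nearest profiles and the listed neighbours; other list members named were chosen after their values were seen.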

Additional observations from a re-analysis of the deposited data

How the results depend on the processing

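The differences of Abra and Ankrd2 were below 0 under every alternative run, and their size followed the scale. Abra was -2.16 with a pseudocount of 1, -6.43 with 0.01, -5.46 with the livers rescaled (a step that moved the median of all genes by -0.875) and -6.23 by limma-voom. Ankrd2 was -2.77, -4.78 and -5.33 with the first 3 of these. Leaving out one liver gave -4.93 to -4.39 and -4.60 to -4.17. Genes called lower numbered 566 with a pseudocount of 1 instead of 961. Genes called higher numbered 266 with a pseudocount of 1, 281 with the livers rescaled and 522 with a mean of at least 1 TPM, where fewer genes were tested, instead of 1333. Over the gene lists without the pair, 37 genes were called higher, and 17, 5 and 22 under these settings in the same order. Rescaling uses the listed genes, of which 2083 had higher values in knockout livers, so it lowers fold changes by construction. Limma-voom on recovered reads, which tested 2943 genes and not all 3201, called 961 genes lower and 1891 higher. Of 34 named genes tested, 15 lost their call in some setting and 0 reversed.

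The labels number livers 1 to 3 in both groups, and same-numbered livers had deviations with r = 0.057, 0.006 and 0.031. Livers with unlike numbers gave r of -0.092 to 0.058. With 3 livers per group this does not show whether mice shared a litter or a day. With the number as a replicate block, 963 genes were called lower and 1337 higher, and the lists gave 37 higher and 17 lower. Abra and Ankrd2 stayed at -4.67 and -4.38. Depth limits the ratio of Abra, which rests on 0 to 3 reads per knockout liver.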
